A study of Mus musculus with 6 samples.

Results

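Branched-chain amino acid catabolism is described here through 10 genes, Bckdhb, Bckdha, Bckdk, Dbt, Bcat2, Ivd, Mccc1, Mccc2, Hibadh and Acadsb, in livers of mice lacking Nrg4. Bckdhb was chosen because its signal was seen to be higher in the knockout on these arrays, and the others because they act in the same pathway. Of the 10 genes, 9 had a probe set with a single gene symbol, 12 probe sets in all, out of 17097 genes and 45141 probe sets on the array. Ivd was not analysed here. A gene with several probe sets is given by the one of highest mean over the arrays, and all 9 passed the filter on dim genes.

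Livers came from Nrg4 knockout mice and from wild-type mice, both labelled C57BL/6, with 3 arrays per genotype. Nrg4 encodes neuregulin 4, a brown fat-enriched secreted protein that binds ErbB receptors. All mice, controls included, were given high-fat chow for 8 weeks that began at the age of 3 months, and livers were taken in the random-fed state. Each array holds an independent pool of liver RNA, and neither the number of mice in a pool nor the part of Nrg4 that was deleted is given in the sources used here. The values are log2 signals after robust multi-array averaging (RMA), so they compare one probe set between arrays and do not rank genes by their amount of RNA. Nrg4 itself read 2.56, 2.43 and 2.64 in the knockout arrays, against 4.94, 4.79 and 4.77 in the wild-type arrays.

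Leucine, isoleucine and valine share the first steps of their breakdown. An aminotransferase, Bcat2 in mitochondria or Bcat1 in the cytosol, removes the amino group, mostly outside hepatocytes, and the branched-chain keto acids travel to the liver. There the mitochondrial branched-chain keto acid dehydrogenase complex commits them to oxidation. Its decarboxylase is built from the alpha subunit Bckdha and the beta subunit Bckdhb, its acyltransferase core is Dbt, and Dld regenerates the lipoate of the core. The kinase Bckdk phosphorylates the alpha subunit and turns the complex off, and the phosphatase Ppm1k turns it on. The arms then separate, with Ivd and the carboxylase subunits Mccc1 and Mccc2 on the leucine arm, Acadsb on the isoleucine arm and Hibadh on the valine arm.

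The promoters of the decarboxylase subunits are shown because the alpha and beta subunits work as a pair, and that of the transporter gene Slc43a1 because its signal followed Bckdhb closely, as described further on. The sequences are from RefSeq, build GRCm38.p6, run from 250 bases before to 50 bases after the annotated start, and are written 5′ to 3′ on the strand of the gene. Bckdhb is at chr9:83924887-83925186 on the plus strand, Bckdha at chr7:25658712-25659011 on the minus strand and Slc43a1 at chr2:84840073-84840372 on the plus strand. Capitals mark letters searched on both strands. The GC box was spelled GGGCGG on either strand. The CCAAT box is its own spelling. The E-box was spelled CACGTG, which reads alike on both strands. The TATA box was spelled TATAAA on either strand. No marked motif overlapped another.
Bckdhb: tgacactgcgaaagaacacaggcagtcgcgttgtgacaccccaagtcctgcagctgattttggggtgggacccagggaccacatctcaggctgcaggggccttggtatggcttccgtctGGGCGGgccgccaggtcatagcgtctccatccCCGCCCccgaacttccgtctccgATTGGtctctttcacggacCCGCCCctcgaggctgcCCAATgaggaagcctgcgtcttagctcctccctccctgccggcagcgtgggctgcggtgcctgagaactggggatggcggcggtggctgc
Bckdha: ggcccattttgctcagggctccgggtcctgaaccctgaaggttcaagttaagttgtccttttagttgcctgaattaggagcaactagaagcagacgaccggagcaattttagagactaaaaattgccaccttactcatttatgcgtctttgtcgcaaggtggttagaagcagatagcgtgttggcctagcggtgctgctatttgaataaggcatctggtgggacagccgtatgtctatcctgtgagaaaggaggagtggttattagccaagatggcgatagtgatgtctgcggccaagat
Slc43a1: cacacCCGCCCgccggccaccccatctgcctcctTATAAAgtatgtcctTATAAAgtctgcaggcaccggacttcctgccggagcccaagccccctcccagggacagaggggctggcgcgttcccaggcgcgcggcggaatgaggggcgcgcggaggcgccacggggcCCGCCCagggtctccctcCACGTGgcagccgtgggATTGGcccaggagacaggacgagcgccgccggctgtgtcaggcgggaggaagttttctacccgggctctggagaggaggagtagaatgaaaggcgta
The Bckdhb window held 3 GC boxes and 2 CCAAT boxes, and the Bckdha window held none of the 4 motifs. The Slc43a1 window held 2 GC boxes, 1 CCAAT box, 1 E-box and 2 TATA boxes. Among 27025 promoters of the same length, 35.9% held a GC box, 38.0% a CCAAT box, 7.24% an E-box and 14.2% a TATA box. A promoter was available for 9 genes of the pathway set, with Ivd among them and Dbt missing, so these are not the 9 measured genes. Of these promoters, 4 held a GC box, 6 a CCAAT box, 1 an E-box and 1 a TATA box. These matches describe letters and not binding.

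The comparison asked how these enzymes differed between the genotypes. Bckdhb was chosen as higher, and the 8 other measured genes also all had a higher mean signal in the knockout. Their median log2 difference was 0.22, against a median of 0.045 and a higher value in 63.4% over the 12466 genes tested. Bcat2, among these 8, entered the test through its knockout values. Bckdhb stood apart in size at 1.64-fold, and the other 8 genes lay between log2 differences of 0.08 and 0.28. None of these 8 passed limma at an adjusted p under 0.05, where 0.0401% of all genes tested did, and their adjusted p-values lay between 0.453 and 0.796. At an unadjusted limma p under 0.05, 3 of the 8 were higher, beside 7.36% of all genes tested. The knockout arrays lay wholly above the wild-type arrays in 4 of the 8, beside 11.7% of all genes tested. Bckdhb was chosen on this contrast, and the other 8 as its pathway with earlier results of these data known. For that reason nothing is read from these shares.

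Bckdhb, the beta subunit of the decarboxylase, read 9.41, 9.64 and 9.61 in the knockout arrays, against 8.86, 8.88 and 8.78 in the wild-type arrays. The genotypes did not overlap, and the gap between the lowest knockout and the highest wild-type array was wider than the whole range within either genotype. The means were 9.55 ± 0.12 in the knockout and 8.84 ± 0.05 in wild type (SD, n = 3 each), a log2 difference of 0.72 (SE 0.09). No test is given, since this difference chose the gene. A single probe set measured it.

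Bckdha, the alpha subunit and partner of Bckdhb, read 8.16, 8.32 and 8.39 in the knockout arrays, against 8.07, 8.12 and 7.96 in the wild-type arrays. The groups did not overlap, but the lowest knockout array stood close to the highest wild-type array. The log2 difference was 0.24 (SE 0.10, limma adjusted p = 0.487). The paired subunits thus both had higher means, with point estimates of 1.64-fold for Bckdhb and 1.18-fold for Bckdha, and the difference between these estimates was not tested.

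Dbt, the acyltransferase core, read 7.583, 7.996 and 7.961 in the knockout arrays, against 7.632, 7.628 and 7.434 in the wild-type arrays. Knockout replicate 1 fell within the wild-type range, while the other 2 knockout arrays stood above all of them. The log2 difference was 0.28 (SE 0.13, limma adjusted p = 0.529), the largest after that of Bckdhb.

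Bckdk, the kinase that inactivates the complex, read 4.90, 4.83 and 4.93 in the knockout arrays, against 4.83, 4.67 and 4.59 in the wild-type arrays. The genotypes touched: knockout replicate 2 and wild-type replicate 1 were alike to 2 decimals, although no knockout array was lower than a wild-type array. The log2 difference was 0.19 (SE 0.09, limma adjusted p = 0.553). Ppm1k, the opposing phosphatase, stood at 0.06 (SE 0.09, limma adjusted p = 0.866), with 8.81, 8.68 and 8.81 in the knockout arrays, against 8.66, 8.74 and 8.73 in the wild-type arrays. Its arrays overlapped.

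Bcat2, the mitochondrial aminotransferase, read 2.53, 2.95 and 2.92 in the knockout arrays, against 2.73, 2.54 and 2.49 in the wild-type arrays. These values straddled 2.66, the level below which a gene was left out as dim. The wild-type mean of 2.59 lay under it, so the gene entered the test through its knockout values. The log2 difference was 0.22 (SE 0.13, limma adjusted p = 0.630) and the arrays overlapped. The cytosolic enzyme Bcat1 had a mean of 2.48, was below the limit and was not tested.

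On the leucine arm, Mccc1 and Mccc2 encode the alpha and beta subunits of methylcrotonyl-CoA carboxylase. Mccc1 read 7.45, 7.61 and 7.64 in the knockout arrays, against 7.30, 7.41 and 7.17 in the wild-type arrays. Mccc2 read 7.58, 7.73 and 7.69 in the knockout arrays, against 7.56, 7.45 and 7.31 in the wild-type arrays. In neither gene did the genotypes overlap, although the nearest arrays were close in both. The log2 differences were 0.27 for Mccc1 (SE 0.10, limma adjusted p = 0.453) and 0.23 for Mccc2 (SE 0.10, limma adjusted p = 0.516). Mccc2 had 2 further probe sets, and both pointed the same way. The first read 5.74, 5.96 and 5.93 in the knockout arrays, against 5.42, 5.51 and 5.53 in the wild-type arrays, without overlap and with a log2 difference of 0.40 (SE 0.09, limma adjusted p = 0.271 over all probe sets). The dimmer one had a log2 difference of 0.31 (SE 0.16), with overlap.

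Hibadh and Acadsb, on the valine and isoleucine arms, had the smallest differences. Hibadh, 3-hydroxyisobutyrate dehydrogenase, read 10.31, 10.32 and 10.43 in the knockout arrays, against 10.32, 10.30 and 10.18 in the wild-type arrays. Its log2 difference was 0.08 (SE 0.09, limma adjusted p = 0.796), and its second probe set stood at 0.16 (SE 0.10). Acadsb, the short/branched-chain acyl-CoA dehydrogenase, read 7.77, 7.82 and 7.84 in the knockout arrays, against 7.79, 7.59 and 7.66 in the wild-type arrays. Its log2 difference was 0.14 (SE 0.09, limma adjusted p = 0.656). The arrays of the genotypes overlapped in both genes. The type of the Acadsb probe set, by its name, is one whose probes may also bind other transcripts.

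**Figure D1:**
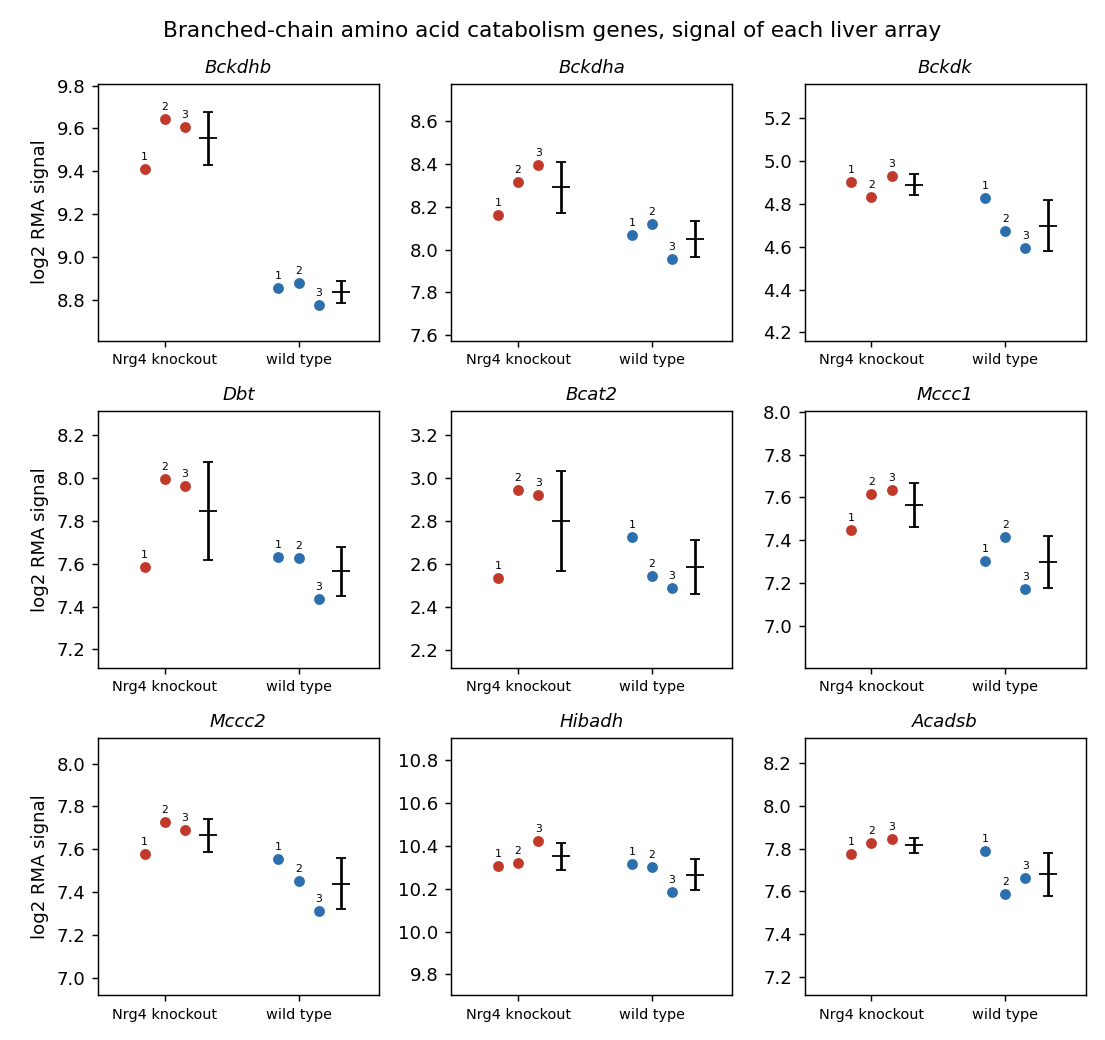
Log2 RMA signal (vertical axes, each spanning the same log2 range) of the 9 measured genes in the 3 knockout arrays (red) and the 3 wild-type arrays (blue), numbered by replicate; black bars are the mean and SD. Bckdhb is the gene with the wide gap, with means of 9.55 in the knockout and 8.84 in wild type, and knockout replicate 1 falls among the wild-type arrays for Dbt, Bcat2, Hibadh and Acadsb.

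The genes varied together across arrays within a genotype. Knockout replicate 1 was the lowest knockout array in 8 of 9 genes, Bckdk being the exception, and wild-type replicate 3 was the lowest wild-type array in 8 of 9, Acadsb being the exception. Over all genes tested these arrays were the lowest of their genotype in 46.5% and 41.8%. The mean deviation of the 9 genes from their own means was 0.01, 0.18 and 0.20 in the knockout arrays, against -0.06, -0.11 and -0.22 in the wild-type arrays. Over all genes tested these deviations were -0.01, 0.03 and 0.05 in the knockout arrays, against -0.004, -0.03 and -0.04 in the wild-type arrays. Without Bckdhb the means for the other 8 genes were -0.01, 0.15 and 0.18 in the knockout arrays, against -0.02, -0.08 and -0.20 in the wild-type arrays, so knockout replicate 1 then lay beside wild-type replicate 1. The controls for Actb and Gapdh carry a 5′ and a 3′ probe set, whose difference reflects RNA integrity. Their 5′ minus 3′ difference averaged -1.31 in knockout replicate 1 and -0.70 and -0.65 in the other knockout arrays, against -0.95, -0.78 and -0.96 in the wild-type arrays. Its part in these results was not tested. Without knockout replicate 1 the log2 difference was 0.79 for Bckdhb, 0.41 for Dbt and 0.31 for Bckdha, with limma adjusted p-values of 0.145 for Dbt and 0.197 for Bckdha. Without wild-type replicate 3 it was 0.69 for Bckdhb, 0.22 for Dbt, 0.20 for Bckdha, 0.21 for Mccc1, 0.16 for Mccc2, 0.14 for Bckdk and 0.04 for Hibadh, and for these genes other than Bckdhb the adjusted p-values were above those from all 6 arrays. Bcat2 stood at 0.35 without knockout replicate 1 and at 0.14 without knockout replicate 2.

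**Figure D2:**
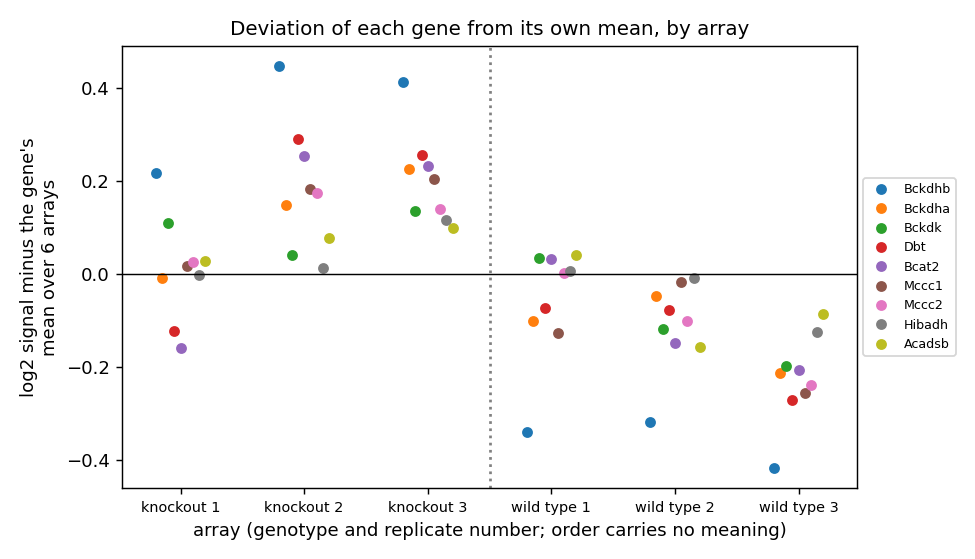
Log2 signal of each gene minus its own mean over the 6 arrays (vertical axis) in each array (horizontal axis), 1 colour per gene; points are offset sideways for legibility. Bckdhb lies highest in all knockout arrays and lowest in all wild-type arrays, and most other genes are lower in knockout replicate 1 and in wild-type replicate 3 than in the other arrays of that genotype.

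The other enzymes of the pathway overlapped in size with the set. Of 20 listed, 15 were tested. Of these, 12 had a higher and 3 a lower mean in the knockout, beside 63.4% of all genes tested with a higher mean. The median log2 difference was 0.08, against 0.22 for the set without Bckdhb, a difference that was not tested. None passed limma at an adjusted p under 0.05. At an unadjusted p under 0.05, beside 7.36% of all genes tested, 1 enzyme was higher. This was Pcca, the alpha subunit of the propionyl-CoA carboxylase that takes up the carbon of valine and isoleucine. It read 8.32, 8.39 and 8.44 in the knockout arrays, against 8.10, 8.22 and 8.20 in the wild-type arrays, without overlap (log2 difference 0.21, SE 0.09, limma adjusted p = 0.488). In the same segment Mmaa, which serves the cobalamin of methylmalonyl-CoA mutase, stood at 0.19 with overlap. On the valine and isoleucine arms, Hibch, which precedes Hibadh, stood at 0.23 (SE 0.11, limma adjusted p = 0.553) and Hsd17b10 at 0.14 (SE 0.08, limma adjusted p = 0.630). A second probe set of Hibch stood at 0.03 and one of Hsd17b10 at 0.01. On the leucine arm, the hydratase Auh stood at 0.11 and Oxct1, which uses ketone bodies, at 0.14, with overlapping arrays in both. Their probe sets differ. One other of Oxct1 stood at 0.40 with the knockout arrays wholly above. Its wild-type mean of 2.51 lay under the dim limit of 2.66, which it passed through its knockout values. Of the rest of Oxct1, one over the limit stood at 0.21 and one under it at 0.45, both with overlap. The 4 others of Auh lay between -0.07 and 0.10. Averaged over their probe sets, Oxct1 stood at 0.30 and Auh at 0.03.

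Among 6 transporters of branched-chain and other large neutral amino acids, 3 had a higher and 3 a lower mean in the knockout, with a median log2 difference of 0.06. Of all genes tested, 63.4% had a higher mean. None of the 6 passed limma at an adjusted p under 0.05, and 2 were higher at an unadjusted p under 0.05, beside 7.36% of all genes tested. Slc43a1, a facilitative carrier of branched-chain amino acids in the plasma membrane, read 4.50, 4.82 and 4.62 in the knockout arrays, against 3.84, 4.01 and 3.97 in the wild-type arrays. The genotypes were clearly apart, at 1.63-fold (log2 difference 0.71, SE 0.11, limma adjusted p = 0.0766), and a single probe set measured the gene. With array weights in the fit the adjusted p was 0.0279, and in the other fits the adjusted p stayed above 0.05. Its relative Slc43a2 stood at 0.39 (SE 0.16, limma adjusted p = 0.507), with wild-type replicate 3 far below the other arrays and with its other 2 probe sets under the dim limit. Slc25a44, the mitochondrial carrier of branched-chain amino acids, stood at -0.16 (SE 0.15), with overlap.

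**Figure D3:**
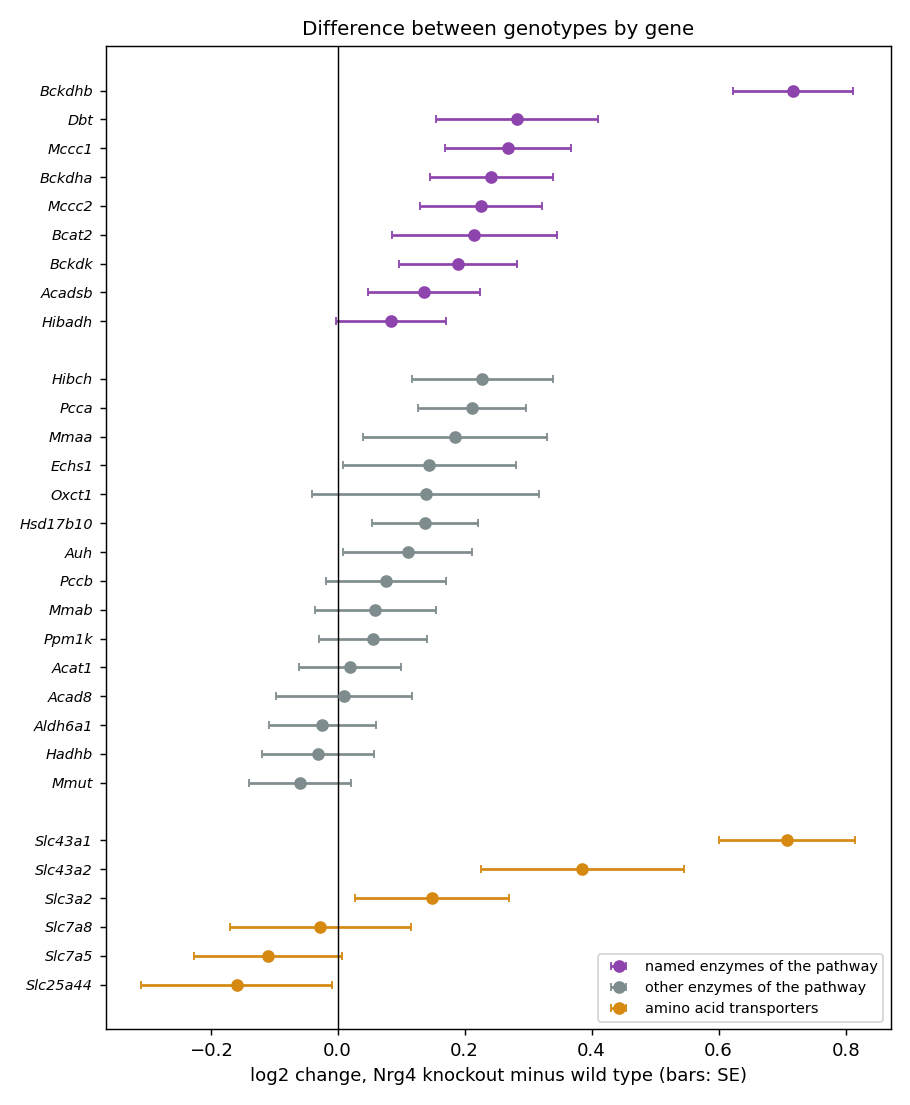
Log2 difference, knockout minus wild type (horizontal axis), with its SE as bars, for the 9 measured genes of the set (purple), 15 other enzymes of the pathway (grey) and 6 amino acid transporters (orange). Bckdhb at 0.72 and Slc43a1 at 0.71 lie apart from the rest, and all purple points are above 0.

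Genes that share cofactors or design with the pathway were set beside it. In the sister complexes for pyruvate and 2-oxoglutarate and their kinases and phosphatases, 10 of 14 genes had a higher and 4 a lower mean, with a median of 0.10. None passed limma at an adjusted p under 0.05, and at an unadjusted p under 0.05 there was 1 higher and 1 lower. Beside these counts, 63.4% of all genes tested had a higher mean, and 7.36% were higher at an unadjusted p under 0.05. Pdhb, the pyruvate dehydrogenase counterpart of Bckdhb, read 8.82, 8.84 and 8.81 in the knockout arrays, against 8.82, 8.73 and 8.74 in the wild-type arrays, and was chosen for mention after its values were seen. Its log2 difference was 0.06 (SE 0.08, limma adjusted p = 0.853). Dlat, the counterpart of Dbt, had a lower mean in the knockout (log2 difference -0.38, SE 0.10, limma adjusted p = 0.314), but its probe sets disagreed, with -0.47 for one and 0.28 for another. Pdk2, a pyruvate dehydrogenase kinase related to Bckdk, stood at 0.36 (SE 0.13, limma adjusted p = 0.443).

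Lipoate is the cofactor of Dbt, and biotin that of the carboxylase formed by Mccc1 and Mccc2. The 3 lipoate genes had higher means (median 0.11), with Lipt1, a lipoyltransferase, at 0.29 and Lias, lipoyl synthase, at 0.11 and on a second probe set at 0.03. The 4 biotin genes tested also had higher means (median 0.27). Hlcs, the ligase that attaches biotin to carboxylases, read 3.55, 3.68 and 3.94 in the knockout arrays, against 3.35, 3.27 and 3.33 in the wild-type arrays, without overlap (log2 difference 0.41, SE 0.11, limma adjusted p = 0.321). Acaca, a biotin carboxylase of fatty acid synthesis, stood at 0.19. None of these genes passed limma at an adjusted p under 0.05, and 1 lipoate and 1 biotin gene were higher at an unadjusted p under 0.05. The shares over all genes tested were 63.4% with a higher mean and 7.36% higher at an unadjusted p under 0.05.

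Of 10 acyl-CoA dehydrogenases and electron transfer flavoprotein genes related to Acadsb and Ivd, 4 had a higher and 6 a lower mean (median -0.02). Acad12 and Gcdh, the second an enzyme of lysine breakdown, had the smallest unadjusted p-values of the list, with log2 differences of 0.20 for Acad12 and 0.14 for Gcdh. None of the 10 passed limma at an adjusted p under 0.05, and 1 was higher at an unadjusted p under 0.05. Among 4 reported regulators and kinase substrates tested, 3 had a higher and 1 a lower mean (median 0.14). None of the 4 passed limma at an adjusted p under 0.05, and 2 were higher at an unadjusted p under 0.05. For both lists, the shares over all genes tested were 63.4% with a higher mean and 7.36% higher at an unadjusted p under 0.05. Ppara, the fasting-linked nuclear receptor, stood at 0.34 on its brightest probe set (limma adjusted p = 0.379) and at -0.13 and -0.35 on the others, so that its direction depends on the probe set. Acly, a reported substrate of the kinase Bckdk that makes acetyl-CoA for lipid synthesis, stood at 0.21 (limma adjusted p = 0.511), with another probe set at -0.11.

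Bckdhb lies on chromosome 9, as Nrg4 does, with 164 tested genes between them, and none of the other 9 genes of the set lies on that chromosome. Of the 10 tested genes on either side of Bckdhb in RefSeq order, 16 had a higher and 4 a lower mean in the knockout. Of all genes tested, 63.4% had a higher mean. The median log2 difference of these neighbours was 0.08. None passed limma at an adjusted p under 0.05, 3 of 20 had an unadjusted p under 0.05, all of them higher, and the knockout arrays lay wholly above the wild-type arrays in 5, beside the background shares of 7.36% and 11.7% given above. On their brightest probe sets the nearest genes had overlapping arrays: Sh3bgrl2 stood at 0.18 and Lca5 at 0.09 on the side towards Nrg4, and Tent5a at 0.42 and Ibtk at 0.02 on the other side. The second probe set of Ibtk passed the dim limit of 2.66 only through its wild-type values, as its knockout mean was 2.43. It read 2.42, 2.55 and 2.32 in the knockout arrays, against 3.10, 3.14 and 3.03 in the wild-type arrays. It was lower in the knockout without overlap (log2 difference -0.66, SE 0.09, limma adjusted p = 0.0688 over all probe sets), so the probe sets of Ibtk disagree. Farther out on that side, Me1, the cytosolic malic enzyme, read 8.65, 8.46 and 8.45 in the knockout arrays, against 7.68, 8.01 and 7.80 in the wild-type arrays (log2 difference 0.69, SE 0.11, limma adjusted p = 0.0853). Its second probe set stood at 0.97. Nt5e, which encodes an enzyme that makes adenosine outside the cell, read 5.56, 5.15 and 5.04 in the knockout arrays, against 4.28, 4.18 and 3.66 in the wild-type arrays (log2 difference 1.21, SE 0.19, limma adjusted p = 0.0778). Its other probe sets stood at 0.06 and -0.09, the second of them under the dim limit. With a variance trend in the fit the adjusted p was 0.0273 for Me1 and 0.0329 for Nt5e, and with array weights it was 0.0408 for Nt5e. Htr1b, a serotonin receptor on the side towards Nrg4, stood at 0.24 (SE 0.09, limma adjusted p = 0.486). Flanking sequence of another strain that a knockout can carry on its chromosome cannot be told apart here from the loss of Nrg4.

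**Figure D4:**
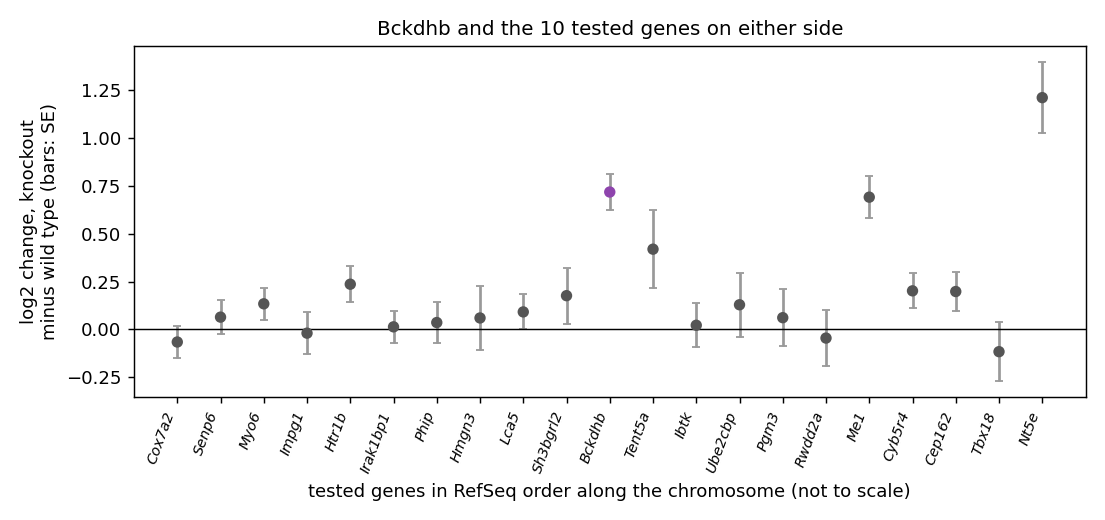
Log2 difference, knockout minus wild type, with its SE (vertical axis), of Bckdhb (purple) and the 10 tested genes on either side (grey), in order along chromosome 9 with Nrg4 beyond the left end; spacing is not to scale. Each gene is shown by its brightest probe set, so the second probe set of Ibtk, at -0.66, is not drawn; Me1 at 0.69 and Nt5e at 1.21 stand high at the right.

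The genes whose 6 array values, each centred on its own mean, lay nearest to those of Bckdhb were Mycl, Slc43a1 and Tex12, at root mean square differences of 0.04, 0.08 and 0.08 on the log2 scale. Mycl, a member of the MYC family of transcription factors, read 3.72, 4.02 and 3.99 in the knockout arrays, against 3.28, 3.31 and 3.12 in the wild-type arrays. Its other probe sets stood at log2 differences of -0.08 and 0.04, the second of them under the dim limit, and the mean of all its probe sets at 0.21, against 0.67 on the one shown. Tex12, a component of the synaptonemal complex, read 3.77, 3.90 and 3.81 in the knockout arrays, against 3.02, 3.03 and 2.87 in the wild-type arrays. It passed limma (log2 difference 0.85, SE 0.09, limma adjusted p = 0.0275). The limma adjusted p was 0.0989 with the replicate block. It lay between 0.103 and 0.145 when any single array other than knockout replicate 1 was left out. The chromosome of Tex12 was not looked up here. Of the pathway set, Dbt and Mccc1 came nearest to Bckdhb, each at 0.23, and ranked 361 and 362 among all genes tested. The measure is a description over 6 arrays in 2 genotypes, and it favours genes with a difference of like size.

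The tissue label was checked on hepatocyte markers. Alb read 12.32, 12.41 and 12.34 in the knockout arrays, against 12.30, 12.33 and 12.34 in the wild-type arrays, and its arrays overlapped. Of 10 such markers tested, 5 had a higher and 5 a lower mean in the knockout (median -0.002), and Pck1 was below the dim limit. The summed linear signal of that list was 28138 to 29749 in the knockout arrays, against 28122 to 29199 in the wild-type arrays. Of the macrophage and Kupffer cell markers, 10 of 10 had a higher mean (median 0.45), with summed signals of 1385 to 2004 in the knockout arrays, against 1234 to 1373 in the wild-type arrays. Sinusoidal endothelial markers had a higher mean in 7 of 8 (median 0.31), at 629 to 745 in the knockout arrays, against 495 to 700 in the wild-type arrays. Stellate cell and matrix markers had a higher mean in 7 of 7 (median 0.39), at 878 to 981 in the knockout arrays, against 632 to 726 in the wild-type arrays. No marker passed limma at an adjusted p under 0.05. Of all genes tested, 63.4% had a higher mean and 7.36% were higher at an unadjusted p under 0.05. At that threshold 5 macrophage, 4 endothelial and 4 stellate cell markers were higher, and none of these lists had a lower one. The macrophage counts include Timd4, whose wild-type mean of 2.657 lay just under the dim limit of 2.663. That gene entered the test through its knockout values. The smallest p-values in these lists were those of Lyve1 of the endothelium (log2 difference 1.29, limma adjusted p = 0.0743), Adgre1 of macrophages (0.64, limma adjusted p = 0.143) and the collagen gene Col3a1 (0.80, limma adjusted p = 0.143), each without overlap. Lyve1 and Col3a1 had 2 probe sets each, and only the brightest is given here. Adgre1 had 1. Of tissues rich in Bcat2, pancreatic acinar markers summed to 197 to 221 in the knockout arrays, against 194 to 236 in the wild-type arrays, and skeletal muscle markers to 32 to 34 in the knockout arrays, against 31 to 33 in the wild-type arrays. Most of the acinar sum came from Cela1, with a mean of 7.38, against 2.8 to 3.8 for the other acinar markers tested. Of 4 muscle markers tested, 2 had a higher and 2 a lower mean. Mylpf was higher without overlap (log2 difference 0.28, limma adjusted p = 0.410). The stellate cell marker Col1a2 and the adipocyte markers Adipoq and Lep were below the dim limit. The other adipocyte markers tested were Fabp4, with a log2 difference of 0.39 (SE 0.17, limma adjusted p = 0.526), and Retn, with -0.05, both with overlap. Adipocyte markers summed to 103 to 128 in the knockout arrays, against 84 to 115 in the wild-type arrays, and most of that signal came from Fabp4. In bulk liver, more cells of a type and more RNA per cell cannot be told apart. The part of non-parenchymal cells in the signals of the pathway genes was not tested. Control probe sets of the small-subunit ribosomal RNA also differed by genotype, without overlap. The 5′ one read 5.61 to 6.71 in the knockout arrays, against 8.12 to 8.80 in the wild-type arrays. The middle one read 5.74 to 6.59 in the knockout arrays, against 7.92 to 8.14 in the wild-type arrays, and the 3′ one 6.67 to 6.89 in the knockout arrays, against 7.45 to 7.73 in the wild-type arrays. Their part in these results was not tested.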

How the data were processed

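Liver RNA extracted with Trizol (250 ng) went into a 3′ IVT labelling kit and onto MG-430 PM strip arrays of Affymetrix, per the labels' protocols. The authors deposited log2 RMA values. Per the submitters' processing notes, the tools were affy, RMA and limma, with version and genome build not given in the sources used here. RMA normalizes by quantiles, so a shift of most genes one way would be reduced. Precision is limited by the number of arrays, and p-values describe the spread between pools of RNA. With 3 arrays per genotype, exact permutation p-values cannot go below 0.1.

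Of 45141 probe sets, 28898 had 1 gene symbol, and 28689 of these matched RefSeq genes (GRCm38.p6) by gene number, used for current names and gene order. A gene was given by its probe set of highest mean. Genes dimmer than the 40th percentile of mean signal over probe sets (log2 2.66, which is no detection limit) were left out, leaving 12466 genes. Genotypes were compared with limma 3.58.1 in R 4.3.3 (lmFit and eBayes, two-sided), and p-values were adjusted by Benjamini-Hochberg across these genes. The fit was tested on simulated data with 200 changed genes in each of 10 draws. There it called 28.8% of genes raised by a log2 difference of 0.5 and 92.5% of those raised by 1. Of its calls, 4.94% were false. A gene with a smaller difference may thus differ without being called. In the real data only 5 genes were called, which makes the adjustment stricter, so these shares need not hold there. Other probe sets were fitted over all probe sets that are not controls. Figures used matplotlib 3.10.9.

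The genes and lists were chosen with earlier results of these data known. The genes named are the set itself, the 2 with the smallest unadjusted p of each list other than the marker lists, the 4 nearest neighbours of Bckdhb and those with an unadjusted p under 0.05, and the 3 nearest to Bckdhb in pattern. Others named were chosen after their values were seen. Alternatives were other normalizations, filters, variance models, array weights, means over probe sets, a replicate block and leaving out each array.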

Additional observations from a re-analysis of the deposited data

How the results depend on the processing

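Every one of the 9 genes kept a higher mean in the knockout under the alternatives run, except that Bcat2 was not tested with the filter at the 60th percentile, with Bckdhb between 0.67 and 0.79, and of the other 8 genes and the other pathway enzymes none passed under any of them. The lowest adjusted p of these 8 was 0.145, for Dbt without knockout replicate 1. The number of all genes called, 5, was 8 with quantile normalization again, 3 with the filter at the 60th percentile, 29 with a variance trend, 50 with array weights, 3 with the mean of all probe sets, 30 at adjusted p under 0.10, 17 without knockout replicate 1, and 1 to 2 when another single array was dropped. The cause was not tested.

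With the replicate number as a block the count was 2 and no call on the 9 genes was altered. Arrays with the same number had correlations of deviations of -0.15, 0.03 and -0.01. Those with different numbers lay between -0.17 and 0.16. Whether arrays of the same number share more than the number cannot be told from these values. Ibtk turned to -0.011 with quantile normalization again and to -0.32 with the mean of all probe sets, and lay between -0.051 and 0.138 when 1 array was left out. Ppara turned to -0.048 with the mean of all probe sets. Oxct1 lay between -0.026 and 0.304 when 1 array was left out.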
